A study of Saccharomyces cerevisiae with 12 samples.

Results

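The genes described here encode the proteins of the large (60S) subunit of the cytosolic ribosome of budding yeast, Saccharomyces cerevisiae. They were chosen by name: every row of the count table whose identifier maps to a standard name of RPL, a number and an optional A or B, together with RPP0, RPP1A, RPP1B, RPP2A and RPP2B. This gave 81 of the 7192 rows. 70 of the 81 form 35 pairs of A and B paralogs and 11 are single genes. RNA was sequenced from 6 samples of cells exposed to the lectin (a sugar-binding protein) of a clam, Cyclina sinensis, and from 6 samples of untreated control cells. All 12 are described as wild-type cells grown in YPD, a medium rich in glucose and peptides, at 30 °C with 200 rpm shaking, to mid-exponential growth. The lectin dose, the time of exposure and any buffer given to the controls are not given in the sources used here. The samples are called lectin 2, 3, 4, 5, 6 and 8 and control 2, 3, 4, 6, 7 and 8, after the numbers in their titles.

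The large subunit joins amino acids into protein. Its catalytic center is made of RNA, with proteins reaching in from the surface, and the growing chain leaves through a tunnel. A flexible stalk built from the P proteins recruits the elongation factors. The 5S RNA sits in a particle with L5 and L11. Most yeast ribosomal protein genes exist as a pair of paralogs left from an ancient genome duplication, which encode the same or nearly the same protein and are often transcribed at different strengths. In growing yeast these genes are transcribed together under Rap1, Fhl1, Ifh1 and Sfp1, and their mRNAs fall during stress and slow growth.

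Because A and B copies are so alike, the bases that tell them apart decide how well their counts can be separated. Coding identity within the 35 pairs ran from 68.2% for RPP1 to 99.4% for RPL1, with a median of 93.2%, and 12 pairs encode identical proteins. The stretches below are from the RefSeq R64 genome, written 5′ to 3′ on the coding strand, for RPL9, RPL8 and RPL33, pairs whose A to B balance differed clearly between the groups, and capitals mark the bases that differ between the copies. In RPL9 the 60 bases from coding position 514 to 573 hold 10 of the 36 differences in 576 coding bases.
RPL9A coding: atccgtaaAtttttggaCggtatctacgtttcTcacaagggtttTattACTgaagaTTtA
RPL9B coding: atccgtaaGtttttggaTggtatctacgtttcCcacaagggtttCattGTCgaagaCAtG
In RPL8 the stretch from 370 to 429 holds 7 of 38 differences in 771 bases.
RPL8A coding: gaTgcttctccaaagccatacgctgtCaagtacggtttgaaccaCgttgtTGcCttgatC
RPL8B coding: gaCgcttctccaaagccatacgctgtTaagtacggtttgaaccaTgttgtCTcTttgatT
In RPL33 positions 88 to 147 hold 8 of 29 differences in 324 bases.
RPL33A coding: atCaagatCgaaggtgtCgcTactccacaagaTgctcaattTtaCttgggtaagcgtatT
RPL33B coding: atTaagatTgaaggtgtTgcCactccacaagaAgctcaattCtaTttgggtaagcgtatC
RPL41 is the opposite case and is shown whole, because its 78 coding bases hold 1 difference, so that reads of the coding region without that base cannot tell the copies apart. Its A and B counts are therefore uncertain.
RPL41A coding: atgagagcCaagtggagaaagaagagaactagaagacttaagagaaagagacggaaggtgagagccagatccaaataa
RPL41B coding: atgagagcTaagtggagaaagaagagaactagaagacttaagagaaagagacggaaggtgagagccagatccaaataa

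The promoters of these genes are known for Rap1 sites. The letters ACCCNNACA, a core of the Rap1 motif, were searched on both strands in the 500 bases before each coding start. They occurred before 36 of the 81 large subunit genes (44.4%) and 18 of 57 small subunit genes. Of the 6008 rows of the count table that the reference lists as coding genes, 329 (5.48%) held them. A match is a description of letters and not a binding site. The windows below, 40 bases each, are from pairs whose balance differed, with the matching letters in capitals.
RPL35A upstream, chrIV:117357-117396, plus strand: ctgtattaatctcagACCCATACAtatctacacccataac
RPL35B upstream, chrIV:217301-217340, plus strand: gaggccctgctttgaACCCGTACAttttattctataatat
RPL33A upstream, chrXVI:281753-281792, plus strand: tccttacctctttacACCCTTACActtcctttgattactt
RPL33B upstream, chrXV:779851-779890, minus strand: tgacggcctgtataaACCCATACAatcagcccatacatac
RPL14A upstream, chrXI:431481-431520, plus strand: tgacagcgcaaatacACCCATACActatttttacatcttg
RPL8A upstream, chrVIII:36240-36279, minus strand: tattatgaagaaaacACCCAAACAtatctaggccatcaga
Both RPL35 and both RPL33 copies hold the letters. Among the 36 genes with the letters 17 (47.2%) fell and 1 rose by the test given below. Among the 45 without them 19 (42.2%) fell and 1 rose. Both shares that fell are near the 44.4% of all 81 genes. Of all tested rows 16.1% fell and 15.4% rose.

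Library totals ran from 17303313 to 21354011 counts in lectin samples and from 17380109 to 19753992 in control samples. All 81 genes passed the filter of at least 10 counts in at least 6 samples, as did 6237 rows in all. The design text calls the samples biological replicates, but no label names separate cultures or days, so p-values measure the spread between these samples, which may be technical in part. In bulk RNA a lower count of a gene and a smaller number of cells that express it cannot be told apart. Counts were divided by DESeq2 size factors, and values below are these normalized counts unless another scale is named.

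Large subunit mRNAs were slightly lower with the lectin as a group, by amounts well under 2-fold. At an adjusted p under 0.05 (DESeq2 Wald test, Benjamini-Hochberg over the 6237 rows) 36 of the 81 genes (44.4%) fell, 2 (2.47%) rose and 43 did not pass. Of all tested rows 16.1% fell and 15.4% rose. The median log2 fold change, lectin over control, was -0.14 over the 81 genes and 0.0017 over all tested rows. 71 of the 81 estimates were below 0, and they ran from -0.41 for RPL12B to 0.20 for RPL8A. None of the 81 passed the thresholds stated by the study (an adjusted p under 0.05 with a change of 1 or more on the log2 scale in either direction), which 0.257% of all rows passed. At an unadjusted p under 0.05, 44 of the 81 passed.

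**Figure D1:**
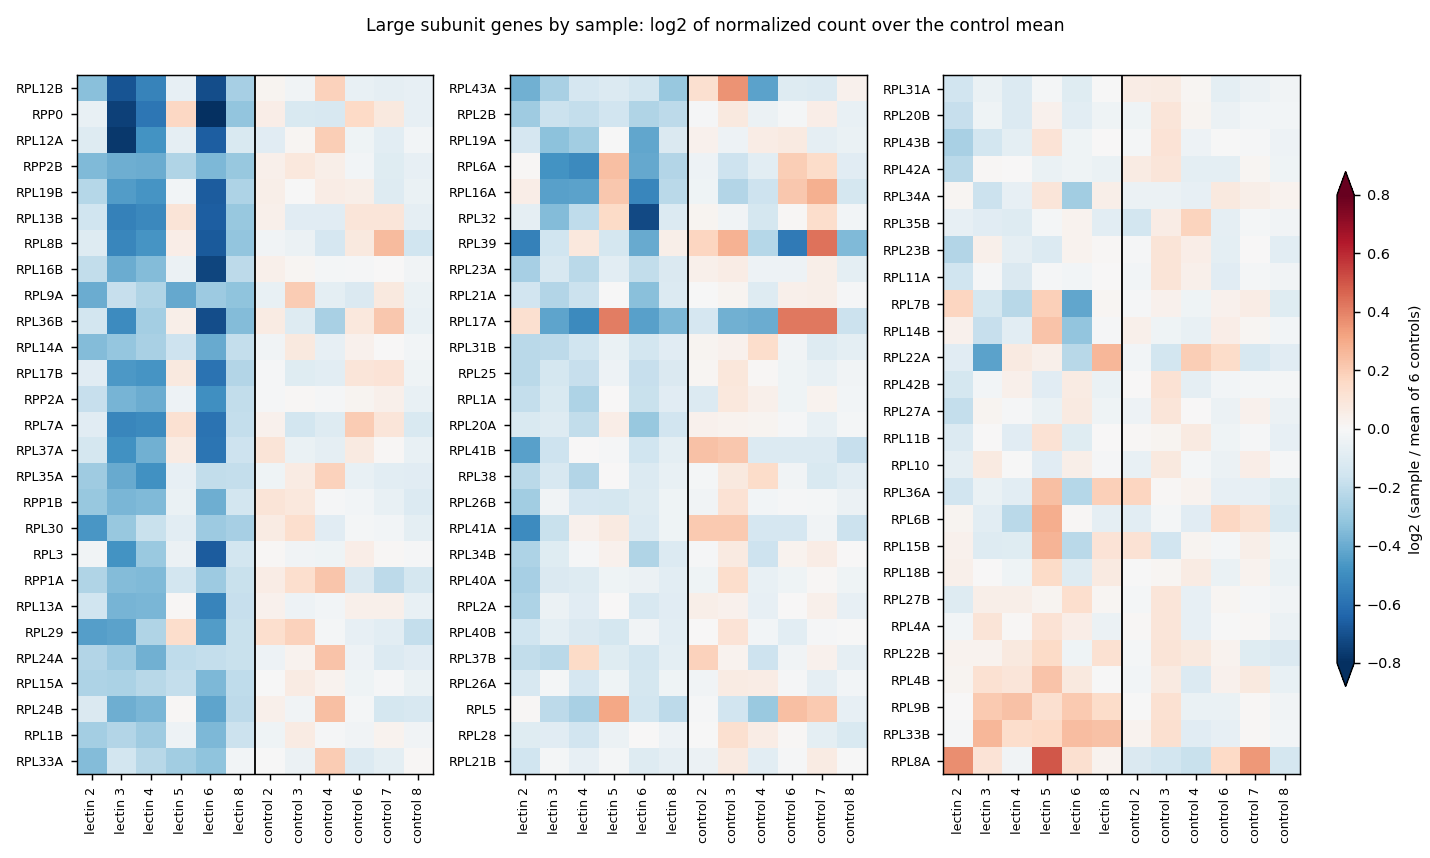
Log2 of each gene's normalized count over the mean of the 6 controls, for 80 of the 81 genes (rows, sorted by log2 fold change) in the 6 lectin samples and the 6 control samples (columns), with blue for lower and red for higher. Lectin 3, 4 and 6 are the darkest columns among the genes that fell, and lectin 5 is close to the controls.

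The genes made up 3.38% ± 0.163 of all counts in lectin samples and 3.73% ± 0.0901 in control samples (SD, n = 6 each). By sample the share was 3.32, 3.31, 3.26, 3.66, 3.26 and 3.50% in lectin 2, 3, 4, 5, 6 and 8, against 3.75, 3.87, 3.77, 3.69, 3.70 and 3.61% in control 2, 3, 4, 6, 7 and 8. The groups overlapped through lectin 5, which stood above control 8. Lectin 5 was the highest of the lectin samples in 58 of the 81 genes. Of the 36 genes that fell, 12 were below every control in lectin 5, while lectin 2, 3, 4, 6 and 8 were below every control in 30 to 36. Without lectin 5, 41 genes fell and 2 rose, and the median log2 fold change was -0.17.

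In 9 genes every lectin value was below every control value: RPP2B, RPL16B, RPL9A, RPL14A, RPL24A, RPL15A, RPL1B, RPL2B and RPL23A. Such a separation in the lower direction held for 6.72% of all tested rows. None of the 81 separated in the higher direction, against 5.85% of all rows.

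Genes were grouped by their place in the subunit, in groups of 2 to 45. Among these the stalk and its base held the highest share that fell, 6 of 7, with a median log2 fold change of -0.34. Of all 81 genes 44.4% fell, and of all tested rows 16.1%. The 7 genes are few and most are paralogs, and whether they fell more than the other large subunit genes was not tested. RPP2B encodes an acidic P2 protein of the stalk. Its lowest, median and highest values were 8630, 8885 and 9620 in lectin samples, against 10623, 11450 and 12039 in control samples. The groups did not overlap, and RPP2B fell by 0.34 on the log2 scale (SE 0.042, DESeq2 adjusted p = 5.9e-14). RPP2A, the other P2 gene, spanned 6122 to 8371 with a median of 7076 in lectin samples, against 8285 to 8864 with a median of 8630 in control samples. The groups touched only at the highest lectin value, and the log2 fold change was -0.27 (SE 0.066, DESeq2 adjusted p = 0.000311).

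The P1 proteins pair with P2 to form the stalk dimers. RPP1B spanned 5577 to 7030 with a median of 5813 in lectin samples, against 6766 to 7840 with a median of 7227 in control samples, a log2 fold change of -0.26 (SE 0.063, DESeq2 adjusted p = 0.000277). RPP1A spanned 7311 to 8408 with a median of 7755 in lectin samples, against 8064 to 10888 with a median of 9151 in control samples, a log2 fold change of -0.26 (SE 0.072, DESeq2 adjusted p = 0.00214). Both P1 genes fell, with a small overlap of the groups.

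RPL12A and RPL12B encode the same protein, L12, at the base of the stalk. RPL12B spanned 1218 to 1906 with a median of 1475 in lectin samples, against 1893 to 2260 with a median of 1933 in control samples. Only the highest lectin value reached the control range, and the log2 fold change of -0.41 (SE 0.096, DESeq2 adjusted p = 0.000164) was the lowest estimate of the 81. RPL12A spanned 846 to 1378 with a median of 1182 in lectin samples, against 1355 to 1659 with a median of 1417 in control samples, a log2 fold change of -0.34 (SE 0.11, DESeq2 adjusted p = 0.00937).

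RPP0 encodes P0, which anchors the P1 and P2 dimers to the ribosome. It had the widest relative spread of the 81 genes among lectin samples, with 4967 at the lowest, 6693 at the median and 10207 at the highest, against 8336, 9063 and 10155 in control samples. The highest lectin value was above every control, and the log2 fold change of -0.35 (SE 0.18) did not pass (DESeq2 adjusted p = 0.111). Without lectin 5 it was -0.48 with a DESeq2 adjusted p of 0.0043, and limma-voom called it with all 12 samples (-0.40, adjusted p = 0.037).

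**Figure D2:**
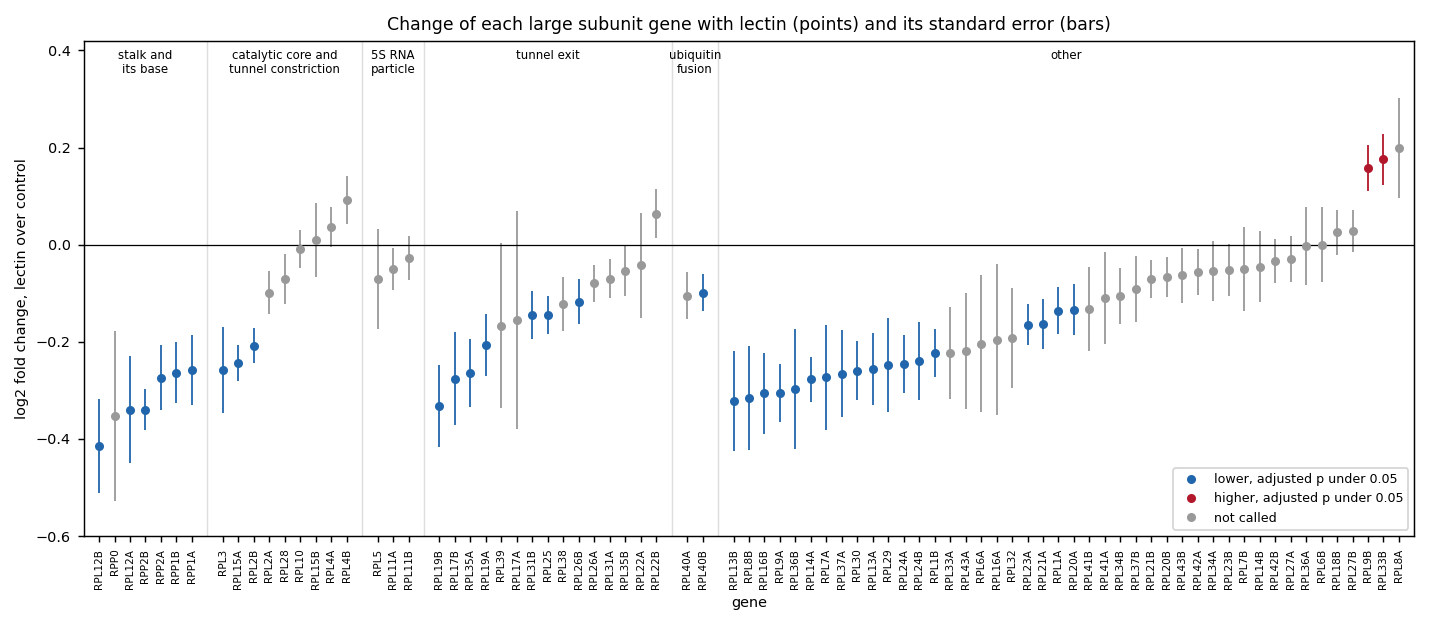
Log2 fold change of 80 of the 81 genes, lectin over control (points), with its standard error (bars), grouped by place in the subunit, with blue for genes that fell, red for genes that rose and grey for those that did not pass. Stalk genes lie between -0.41 and -0.26, and RPL9B and RPL33B are the red points.

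In the group placed around the catalytic center and the narrow part of the tunnel, 3 of 9 genes fell: RPL3, RPL15A and RPL2B. Each gene was placed in a single group, and RPL17A and RPL17B are counted at the tunnel exit only. RPL15A, whose product is buried in the RNA core, spanned 16386 to 18417 with a median of 17860 in lectin samples, against 20230 to 21969 with a median of 20914 in control samples. The groups did not overlap, and the log2 fold change was -0.24 (SE 0.036, DESeq2 adjusted p = 6.6e-10). RPL2B spanned 20562 to 22568 with a median of 21826 in lectin samples, against 24000 to 26436 with a median of 24845 in control samples, again without overlap, and the log2 fold change was -0.21 (SE 0.036, DESeq2 adjusted p = 1.6e-07). L2 contacts the RNA close to the peptidyl transferase center.

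RPL3, whose product reaches toward the same center, spanned 18280 to 28432 with a median of 24836 in lectin samples, against 28306 to 29980 with a median of 28909 in control samples, a log2 fold change of -0.26 (SE 0.089, DESeq2 adjusted p = 0.0151). RPL10, a single gene whose product is among the last to join the subunit, spanned 32590 to 36621 with a median of 34590 in lectin samples, against 33378 to 36640 with a median of 34407 in control samples. The RPL10 groups lay on top of each other, with a log2 fold change of -0.0087 (SE 0.04, DESeq2 adjusted p = 0.896). RPL4A, RPL4B, RPL2A, RPL15B and RPL28 did not pass either.

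None of the 3 genes of the 5S RNA particle passed. Log2 fold changes were -0.07 for RPL5, -0.05 for RPL11A and -0.03 for RPL11B.

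At the tunnel exit, where chaperones and targeting factors meet the new chain, 7 of 15 genes fell, with a median log2 fold change of -0.14. RPL19B spanned 6896 to 10767 with a median of 8631 in lectin samples, against 10207 to 11388 with a median of 11121 in control samples, a log2 fold change of -0.33 (SE 0.084, DESeq2 adjusted p = 0.000621). RPL25, the docking protein for exit factors, spanned 16565 to 18717 in lectin samples, against 18450 to 20507 in control samples, and its log2 fold change was -0.14 (SE 0.039, DESeq2 adjusted p = 0.00148). RPL19A, RPL17B, RPL31B, RPL26B and RPL35A also fell, by 0.12 to 0.28 on the log2 scale. The RPL26B call was lost with edgeR (adjusted p = 0.071) and without lectin 5 (-0.11, DESeq2 adjusted p = 0.056). The other 8 (RPL17A, RPL22A, RPL22B, RPL26A, RPL31A, RPL35B, RPL38 and RPL39) did not pass.

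L40 is made as a fusion with ubiquitin that is cleaved after synthesis. RPL40B had a log2 fold change of -0.098 (SE 0.039, DESeq2 adjusted p = 0.037) that edgeR did not call (adjusted p = 0.082) and that lost the call in 9 of the 12 fits that left out 1 sample, with estimates of -0.1 to -0.076, and RPL40A had a nearly equal estimate of -0.11 that did not pass (DESeq2 adjusted p = 0.0813).

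Of the other 45 genes, grouped here without a further role, 19 fell and 2 rose. RPL16B spanned 8831 to 14216 with a median of 12111 in lectin samples, against 14407 to 15066 with a median of 14644 in control samples. It did not overlap, and its log2 fold change was -0.31 (SE 0.084, DESeq2 adjusted p = 0.00161). L16 is an outer-surface protein of the subunit. RPL14A spanned 6358 to 7504 with a median of 6919 in lectin samples, against 8052 to 8876 with a median of 8366 in control samples, a log2 fold change of -0.28 (SE 0.046, DESeq2 adjusted p = 4.9e-08) with no overlap. RPL13B fell by 0.32 (SE 0.1, DESeq2 adjusted p = 0.00795) on the log2 scale, with 7811 to 13212 in lectin samples and 11576 to 13162 in control samples, where 1 lectin sample was above every control and the other 5 below every control. RPL36B had few counts, 84.5 to 142 in lectin samples and 115 to 160 in control samples, and fell by 0.3 (SE 0.12, DESeq2 adjusted p = 0.0494), which edgeR's quasi-likelihood test did not call (adjusted p = 0.071) and which lost the call in 9 of the 12 fits without 1 sample (estimates -0.32 to -0.23).

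L1 forms the mobile arm where spent tRNA leaves the ribosome. RPL1B spanned 16489 to 20553 with a median of 17724 in lectin samples, against 20581 to 22100 with a median of 20865 in control samples, a log2 fold change of -0.22 (SE 0.05, DESeq2 adjusted p = 8.7e-05). L24 takes part in a bridge to the small subunit, and RPL24A spanned 4762 to 5514 with a median of 5348 in lectin samples, against 5761 to 7288 with a median of 6061 in control samples, a log2 fold change of -0.25 (SE 0.06, DESeq2 adjusted p = 0.000317). L23 lies on the face that meets the small subunit, and RPL23A spanned 5268 to 5974 with a median of 5656 in lectin samples, against 5988 to 6600 with a median of 6333 in control samples, a log2 fold change of -0.16 (SE 0.042, DESeq2 adjusted p = 0.000729). In all of these the groups stood apart, though the nearest RPL1B and RPL23A samples nearly met. The RPL1 copies share 99.4% of their coding bases and the RPL4 copies 98.9%, so the separate counts within each pair are uncertain. The summed RPL1 count was 22212 ± 1648 in lectin samples and 25646 ± 790 in control samples (SD). RPL30, whose protein binds its own transcript, spanned 10609 to 13806 with a median of 12079 in lectin samples, against 13725 to 16035 with a median of 14438 in control samples, a log2 fold change of -0.26 (SE 0.061, DESeq2 adjusted p = 0.000182) with a small overlap. Others that fell include RPL1A, RPL7A, RPL8B, RPL9A, RPL13A, RPL20A, RPL21A, RPL24B, RPL29 and RPL37A, by 0.13 to 0.32 on the log2 scale, and edgeR did not call RPL7A, RPL20A and RPL29 among them. The genes of this group that did not pass are RPL6A, RPL6B, RPL7B, RPL8A, RPL14B, RPL16A, RPL18B, RPL20B, RPL21B, RPL23B, RPL27A, RPL27B, RPL32, RPL33A, RPL34A, RPL34B, RPL36A, RPL37B, RPL41A, RPL41B, RPL42A, RPL42B, RPL43A and RPL43B.

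The genes that rose were both B copies. RPL9B spanned 14604 to 17159 with a median of 16485 in lectin samples, against 14023 to 15864 with a median of 14417 in control samples. Its log2 fold change was 0.16 (SE 0.047, DESeq2 adjusted p = 0.00412). RPL33B spanned 7071 to 8550 with a median of 8152 in lectin samples, against 6681 to 7769 with a median of 7085 in control samples, a log2 fold change of 0.18 (SE 0.053, DESeq2 adjusted p = 0.00507). Both pairs of groups overlapped. RPL8A had the highest estimate, 0.20 (SE 0.1), with 4512 to 6485 in lectin samples and 4055 to 5828 in control samples, and did not pass (DESeq2 adjusted p = 0.13). Without control 7 it was 0.28 and passed (DESeq2 adjusted p = 0.014), as it did with all 12 samples under a correction for GC content and length (0.21, DESeq2 adjusted p = 0.039).

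The A and B copies were contrasted by the log2 ratio of A to B in each sample (with 0.5 added to each count), tested with limma over all 391 paralog pairs found in the genome. Of the 35 large subunit pairs 12 (34.3%) differed in ratio at an adjusted p under 0.05, against 37.9% of all 391 pairs. The median size of the change was 0.11 over the 35 pairs and 0.13 over all 391, on the log2 scale. In 8 of the 12 the A copy was relatively lower with the lectin and in 4 the B copy. In 7 pairs both copies fell, in 17 a single copy fell and the other did not pass, in 9 neither passed, in RPL9 the copies moved apart in opposite directions and in RPL33 the B copy rose and the A copy did not pass. In 8 of the 17 the ratio itself changed, and in the other 9 a difference between the copies was not shown.

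**Figure D3:**
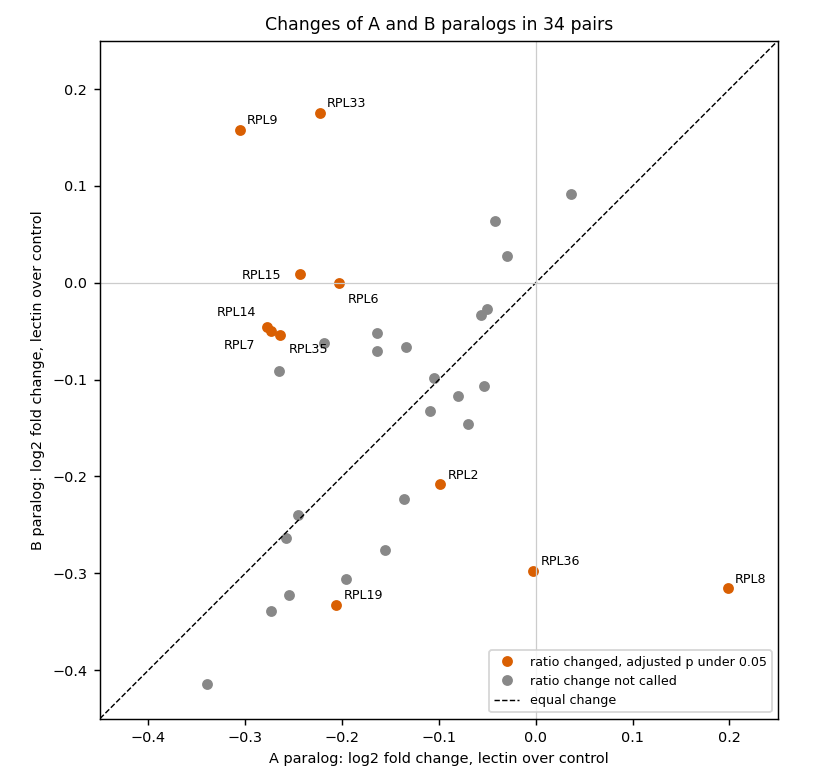
Log2 fold change of the A copy (horizontal) and of the B copy (vertical), lectin over control, for 34 of the 35 pairs (points), with the line of equal change. The 11 of these pairs whose ratio changed are orange, and RPL9, RPL33 and RPL8 lie farthest from the line.

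L9 lies near the stalk side of the subunit. RPL9A was 3551 to 4144 with a median of 3811 in lectin samples, against 4357 to 5430 with a median of 4537 in control samples, and fell by 0.31 on the log2 scale (SE 0.06, DESeq2 adjusted p = 5.8e-06) while RPL9B rose. The A copy made up 18.2, 18.9 and 19.8% of RPL9 counts at the lowest, median and highest in lectin samples, against 23.7, 24.1 and 25.5% in control samples. The shares did not overlap, and the log2 ratio differed by -0.46 (SE 0.04, limma adjusted p = 1.6e-06). An exact two-sided permutation test gave p = 0.00216, the smallest that 6 against 6 samples can give. The sum of both copies was 20081 ± 1120 in lectin samples and 19295 ± 1082 in control samples (SD, n = 6 each), a difference within the spread.

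RPL8 went the other way. RPL8B, at 2307 to 3815 with a median of 2798 in lectin samples and 3281 to 4367 with a median of 3580 in control samples, fell by 0.32 on the log2 scale (SE 0.11, DESeq2 adjusted p = 0.0133), and by 0.26 without control 7, where it did not pass (DESeq2 adjusted p = 0.051). The A share was 61.3, 63.3 and 68.5% in lectin samples at the lowest, median and highest, against 53.9, 55.4 and 57.2% in control samples, with no overlap and a log2 ratio difference of 0.53 (SE 0.07, limma adjusted p = 3.6e-05). The sum of the copies was 8218 ± 1297 in lectin samples and 8264 ± 1113 in control samples.

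L14 is a protein of the solvent side of the subunit. RPL14 had an A share of 52.2 to 57.5% in lectin samples, against 57.8 to 60.8% in control samples (log2 ratio difference -0.22, SE 0.057, limma adjusted p = 0.00596). The shares did not overlap, although the shift was a few percentage points.

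For RPL15 the A copy held nearly all counts, 94.5 to 95.6% in lectin samples, against 95.6 to 96.5% in control samples (log2 ratio difference -0.25, limma adjusted p = 0.00928), and the sum of the copies was 18630 ± 818 in lectin samples and 21889 ± 608 in control samples. The RPL15 shares nearly met, at 95.61% in the highest lectin sample and 95.63% in the lowest control sample. For RPL33 the A copy held 1.46 to 1.81% in lectin samples, against 1.91 to 2.63% in control samples (-0.39, SE 0.076, limma adjusted p = 0.000911). RPL33A itself spanned 123 to 154 in lectin samples, against 145 to 180 in control samples, and did not pass (DESeq2 adjusted p = 0.0572). Without lectin 8 it did, at -0.27 (DESeq2 adjusted p = 0.029). RPL33A is among the least counted genes and stands next to a row that the reference lacks (below), so its share is uncertain. The summed RPL33 count was 8168 ± 558 in lectin samples and 7269 ± 384 in control samples.

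**Figure D4:**
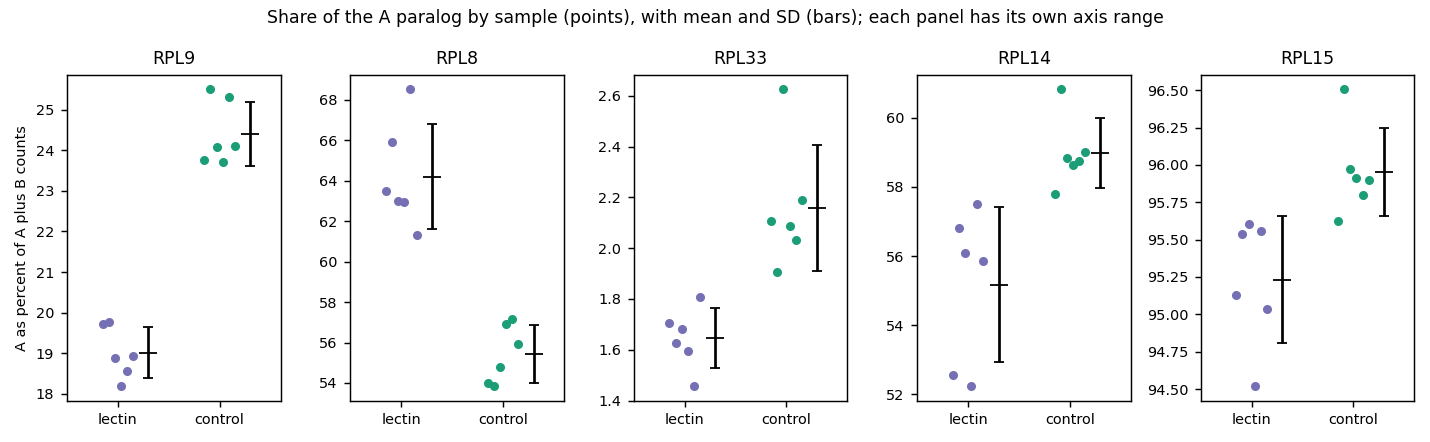
A copy as a percent of A plus B counts in each of 6 lectin and 6 control samples (points), with mean and SD (bars), for 5 of the 6 pairs whose groups did not overlap, each panel with its own axis range. How often shares separate among all 391 pairs of the genome was not counted, so this number has no background beside it. RPL9 sits at 18.2 to 19.8% in lectin samples and 23.7 to 25.5% in control samples.

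The other pairs whose ratio changed had overlapping shares. RPL35A spanned 3061 to 4080 in lectin samples, against 4010 to 4851 in control samples, and fell by 0.26 on the log2 scale (DESeq2 adjusted p = 0.00127), while RPL35B did not pass, and the log2 ratio differed by -0.22 (limma adjusted p = 0.00677). The RPL35 copies share 99.2% of their coding bases, so their separate counts are uncertain. RPL7A fell by 0.27 on the log2 scale (DESeq2 adjusted p = 0.0383, edgeR adjusted p = 0.062), a call lost without control 2, 6 or 7 or lectin 3, 4 or 6 (estimates -0.27 to -0.22), with a ratio difference of -0.23 (limma adjusted p = 0.00987). The remaining ratio differences were 0.13 for RPL19, 0.11 for RPL2, -0.22 for RPL6 and 0.30 for RPL36, with limma adjusted p-values from 0.016 to 0.0446. The RPL6 ratio was not called without lectin 3 (-0.19) or lectin 6 (-0.18), nor the RPL36 ratio without control 2, 6, 7 or 8 or lectin 3, 6 or 8 (0.24 to 0.32) or by an exact permutation test (adjusted p = 0.088). Neither stalk pair was called, with ratio differences of 0.02 (SE 0.059) for RPP1 and 0.06 (SE 0.057) for RPP2. The 23 pairs that were not called ranged from -0.19 to 0.14.

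Per kilobase of exon, the mean levels over all 12 samples had a median of 16334 normalized counts, and ran from 411 for RPL36B to 62997 for RPL41A. RPL41A, RPL41B at 60141 and RPL10 at 52046 were the highest, and neither RPL41 gene passed the test (DESeq2 adjusted p = 0.403 for RPL41A and 0.245 for RPL41B). RPL41A spanned 3592 to 5354 in lectin samples and 4522 to 5901 in control samples, while RPL41B spanned 3637 to 4908 in lectin samples and 4320 to 5775 in control samples. These counts were far below those of RPL10, at 32590 to 36621 in lectin samples. The high RPL41 levels per kilobase come from dividing by only 78 bases of exon, so their rank is uncertain. RPL36B, RPL43A, RPL39, RPL33A and RPL22A lay under 600 per kilobase and the next gene, RPL15B, at 1443.

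Of the 11 lowest genes, a number chosen after the levels were seen, 10 stand next in the systematic numbering to a counted row that the RefSeq annotation does not hold, against 10 of the other 70. The median level per kilobase was 5344 in the 20 genes beside such a row and 17050 in the 61 that were not. Whether those rows overlap the genes is not given in the sources used here, nor is the strand setting of the counting, and their part in the levels was not tested. The level contrasts of A and B copies in RPL22, RPL33, RPL36 and RPL43 are therefore uncertain. RPP0, RPL7B, RPL8A, RPL8B, RPL9B, RPL12A, RPL12B and RPL14B are also among the 20 genes beside such a row. The same limit holds for their levels and for the A shares of their pairs. RPL7A and RPL7B each overlap a noncoding gene in the reference. 7 of the 20 genes fell and 1 rose, and 29 of the 61 fell and 1 rose.

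**Figure D5:**
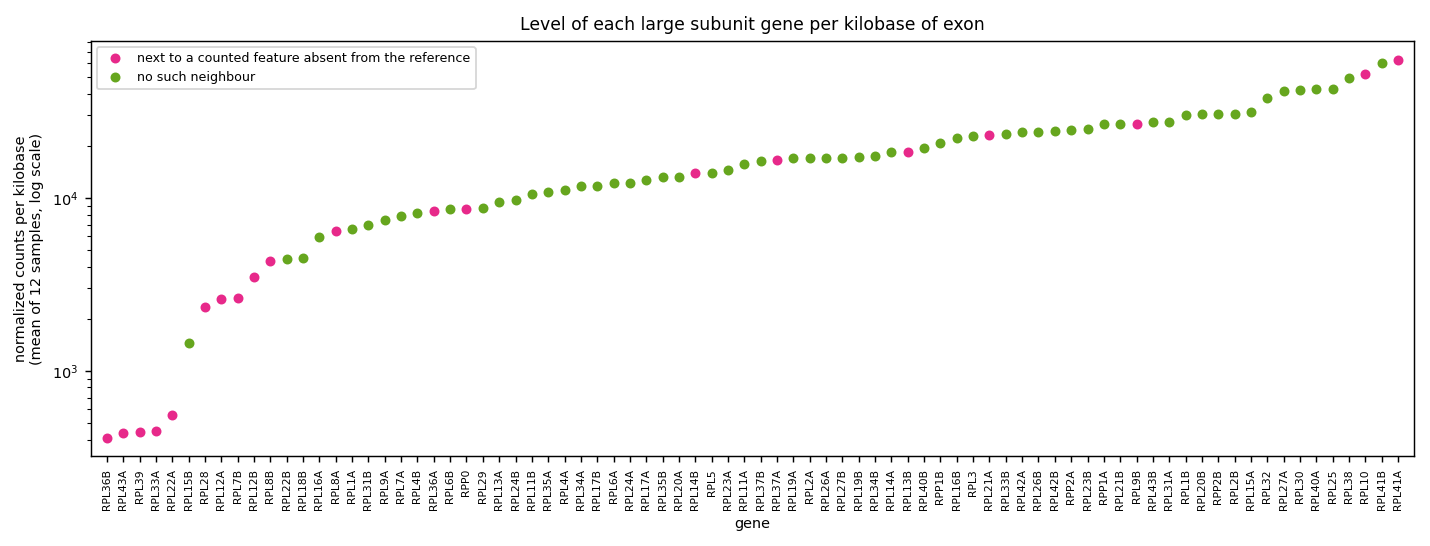
Mean normalized count per kilobase of exon over 12 samples (log axis) for 80 of the 81 genes, sorted from low to high, with pink for genes next to a counted row absent from the reference. The 5 lowest genes, all pink, lie between 411 and 558.

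Control shares of the A copy ran from 1.66% for RPL43 to 96.0% for RPL15. In 16 pairs the share was between 40 and 60%, and in 5 the copies differed over 5-fold. The A copy held over 50% in 17 of the 35.

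The spread within the lectin group was unequal among the genes. In 21 genes the coefficient of variation over lectin samples was at least 15%, a limit chosen after the values were seen. Lectin 5 was the highest of the lectin samples in 18 of the 21 and in 40 of the other 60. Lectin 6 was the lowest in 15 of the 21 and in 18 of the other 60. The 21 include RPP0, RPL12A, RPL12B, RPL3, RPL13B, RPL16A, RPL16B, RPL17A and RPL17B. 12 of the 21 fell, with a median log2 fold change of -0.27, and 24 of the other 60 fell and 2 rose. RPL17A, at 5228 to 9889 in lectin samples and 5644 to 9971 in control samples, had a wide range in both groups.

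Introns are frequent in these genes. Of 53 genes with an intron 22 fell and 1 rose, with a median log2 fold change of -0.12, and of 28 without 14 fell and 1 rose, with a median of -0.21.

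Small subunit genes gave a like count, 25 of 57 (43.9%) lower and 1 higher (0 with edgeR) with a median log2 fold change of -0.12, and these genes share the samples and the scaling. Among 496 coding genes at or above the median level of the large subunit genes, 154 (31.0%) fell and 97 (19.6%) rose, with a median of -0.055. Large and small subunit genes at that level were not removed from the 496, so this is not a separate comparison set.

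Of 18 regulators of ribosomal protein gene transcription and their signaling, 2 fell and 4 rose, with a median log2 fold change of 0.05. Of all tested rows 16.1% fell and 15.4% rose. The regulator counts are near these shares, which also stand beside the counts of the lists below. IFH1, a coactivator recruited by Fhl1, spanned 4371 to 4890 with a median of 4751 in lectin samples, against 3395 to 3918 with a median of 3671 in control samples, without overlap, and rose by 0.36 on the log2 scale (SE 0.043, DESeq2 adjusted p = 3.3e-15). FHL1, its partner on the promoters, rose by 0.24, as did TOD6, a repressor of ribosome biogenesis genes, and LST8, a TOR complex subunit, rose by 0.17. HMO1, a high-mobility group protein on many ribosomal protein promoters, fell by 0.3 and YPK3, a kinase of the small subunit protein Rps6, fell by 0.26. RAP1 (log2 fold change -0.08) and SFP1 (0.10) did not pass.

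Of 32 assembly and export factors of the large subunit, 4 fell (ACL4, ARX1, AFG2 and ALB1, by 0.13 to 0.23 on the log2 scale) and 1 rose, JJJ1, a cytosolic co-chaperone of late maturation, by 0.36, shares below the 16.1% and 15.4% of all tested rows. The count that rose was 5 without lectin 5 and 2 without control 4. The median was 0.0097. ACL4 encodes the chaperone of L4, whose 2 genes did not pass. Of 11 tested translation elongation genes 5 fell, TEF4, EFT1, EFT2, YEF3 and STM1 (a ribosome-binding protein), by 0.1 to 0.26 on the log2 scale, and ANB1, an eIF5A copy known for expression at low oxygen, rose by 0.48, with a median of -0.02. EFT1 and EFT2 encode the same elongation factor, which the stalk recruits, and their near-identical copies make the split of counts between them uncertain. HYP2, the other eIF5A gene, is listed at 0 in every sample. Whether its reads were lost in the counting was not tested, so its 0 is not a measure of silence. The balance of the eIF5A copies cannot be read from these counts.

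Of 18 genes of stress and slow growth 8 rose and 3 fell, where 15.4% of all tested rows rose and 16.1% fell, with a median log2 fold change of 0.07. HSP30 rose by 0.73, SSA3 by 0.54 and HSP26 by 0.43, while HSP12, CTT1 and GPH1 fell by 0.17 to 0.33. Their summed level spanned 354952 to 414536 in lectin samples and 320642 to 370724 in control samples, with means of 385684 in lectin samples and 338625 in control samples. Most of that difference lay in HSP26, at 116923 ± 8612 in lectin samples and 86574 ± 4252 in control samples, and HSP30, at 32297 ± 6881 in lectin samples and 19522 ± 2755 in control samples (SD, n = 6 each). In the control samples too, the mean of HSP26 was above those of TEF1, at 78979, and RPL10, at 34767. Whether the cultures were all in the described growth phase was not tested. Markers of cell state also moved. All 5 genes of the a mating type fell, with a summed level of 714 to 837 in lectin samples and 1007 to 1171 in control samples, while of 4 genes of the alpha type 1 fell and 1 rose (summed level 2358 to 2468 in lectin samples and 2572 to 2761 in control samples). Of 5 genes of diploid or sporulating cells 3 rose (summed level 2454 to 2627 in lectin samples and 2023 to 2237 in control samples). No gene of the mating type and sporulation lists was at 0 in either group, and the part of any of these genes in the lower ribosomal protein mRNA was not tested.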

How the data were processed

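Poly-A selected RNA was sequenced in paired-end reads, per the labels and the series' design text. The design text calls the libraries strand-specific, while the kit that the labels name is not one that marks strand, so whether the counts separate the strands is not known. The deposited table holds raw counts per gene, unnormalized and not pooled, which the authors made with fastp, HISAT2, featureCounts and build R64, per the submitters' processing notes. Versions, the strand setting and the handling of reads that match several genes are not given in the sources used here. Dropping or sharing such reads would lower or blend the counts of paralogs and of overlapping genes. All 12 sample columns were used.

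Rows that reached 10 counts in 6 or more samples were tested with DESeq2 1.42.0 (R 4.3.3, Wald test, the test named by the study, unshrunken log2 fold changes). edgeR 4.0.16 (quasi-likelihood) and limma-voom (limma 3.58.1) were alternatives, with other scalings, no filter, a GC and length correction (mgcv 1.9.3), a replicate block and leaving out each sample. Scripts were tested on simulated data. In all 30 within-group pairs of samples the counts differed beyond sampling noise (chi-square per degree of freedom 6.71 to 59.1). Paralog pairs were reciprocal best protein hits (BLAST 2.17.0, at least 50% identity over 70% of the length). 6047 rows matched a RefSeq R64 gene name.

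Genes given with values are the 10 called genes with the lowest log2 fold change, those called higher, the stalk genes, both genes of the first 8 pairs by p and the 3 with the highest counts per kilobase. Others were chosen after their values were seen. The members and lists were chosen with earlier results of these data known. 1 gene of the family, and the pair it belongs to, enter the fits and counts but are not reported here.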

Additional observations from a re-analysis of the deposited data

Results flagged for a closer look

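Across 104 groups of 6 samples (for 39 genes described above, each pair whose ratio changed and the share of all counts), a sample was marked where its gap to the nearest other sample took up more of the range than Dixon's critical value allows, which chance gives in about 1 of 20 groups, or 5.2 here. 5 were found, all in the control group. Control 4 stood apart in RPL12A, at 1659 where the other controls were 1355 to 1461, in RPL12B, at 2260 where the others were 1893 to 2020, and in RPL33A, at 180 where the others were 145 to 157. Control 3 stood apart in RPL9B, at 15864 where the others were 14023 to 14696, and in the A share of RPL6, at 57.6% where the others were 60.1 to 60.9%.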

How the results depend on the processing

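Under all alternatives run, the large subunit count that fell stayed within 1.5 times of 36 (28 to 41 when leaving out 1 sample, 30 with edgeR) and the median log2 fold change was -0.17 to -0.12. Called paralog ratios numbered 10 to 16, against 12. No label says whether equal replicate numbers pair the samples. The mean correlation of deviations was -0.028 over 5 same-numbered pairs and 0.0046 over the 31 others. So few same-numbered pairs cannot settle whether the samples are paired. A replicate block on the 10 samples with shared numbers gave 38 lower and 3 higher large subunit genes, against 40 and 3 without it, and 10 called ratios against 13. The block ended the call of the RPL2 ratio (0.097, limma adjusted p = 0.14), while the RPL36 ratio was called neither with it (limma adjusted p = 0.12) nor without it (0.084). RPP0 and RPL8A were called in those 10 samples with the block (-0.49 and 0.21), with the block and the GC and length correction (-0.46 and 0.23) and without either (-0.47 and 0.21). Those 10 samples leave out lectin 5 and control 7. Leaving out lectin 5 alone already gave the RPP0 call, and leaving out control 7 alone the RPL8A call, so these fits are not separate evidence. Smaller lists moved. Small subunit genes that rose, 1 as reported, numbered 0 with edgeR, limma-voom, TMM or upper-quartile scaling and no filter, 3 with the GC and length correction alone or with the block, and 0 to 2 leaving out a sample. Assembly factors that rose, 1 as reported, numbered 2 with the correction, 4 with the block, 4 with both, 7 in the same 10 samples without it and 1 to 5 leaving out a sample, and those that fell numbered 2 with the block, alone or with the correction. Elongation genes that fell numbered 3 with edgeR, limma-voom or the block. The cause was not tested. Estimates near 0 changed sign without being called. RPL10 was 0.021 with the correction, 0.019 with the block, 0.057 with both, 0.019 in the same samples without it, and -0.026 to 0.0076 leaving out a sample. RPL15B was -0.042 with the block, -0.0043 with both, -0.040 without it and -0.050 to 0.051 leaving out a sample, where RPL18B was -0.0021 to 0.049, RPL14B -0.11 to 0.0032 and RPL7B -0.10 to 0.013. Of 897 refits of 39 genes, 830 kept direction and side of the threshold, 39 lost the call (RPL40B, RPL36B, RPL7A and RPL8B), 11 gained it and 17 changed sign. Of 228 refits of the 12 called pairs 13 lost the call, 10 of them RPL36. Few counts limit RPL36B, RPL33A, RPL43A and RPL39.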
